A study of Mus musculus with 4 samples.

Results

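Genes best known from the neuronal cytoskeleton and the neuronal surface, 10 in number, were examined in RNA-seq of mouse cortical astrocyte cultures. They were taken by name: the microtubule-associated protein genes Map2, Mapt and Dcx, the beta-tubulin gene Tubb3, the stathmin genes Stmn1, Stmn2, Stmn3 and Stmn4, and the membrane glycoprotein genes Gpm6a and Gpm6b. All 10 were found among the 53379 genes of the count table, and 9 of them passed the filter on low counts and were tested, with Dcx left out. The cultures came from C57BL/6 mice that were wild type (WT) or Npas3-/-, lacking by label the bHLH-PAS transcription factor Npas3, with 2 samples of each genotype. Cortex of newborn pups was dissociated with papain, flasks were shaken every day over the first week to take off neurons and other cells, and the remaining cells were replated in serum medium and harvested on day 14 in vitro. The labels do not name the deleted part of Npas3. They also leave unsaid whether replicates are separate animals or cultures. The spread behind the p-values is thus that of these samples and may be technical.

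Microtubules are hollow polymers of alpha- and beta-tubulin that grow and shrink at their ends. Map2 (dendrites), tau (the product of Mapt, axons) and doublecortin (the product of Dcx, migrating young neurons) bind along the polymer and stabilise it, whereas stathmins bind free tubulin and promote disassembly. Stmn1 is widely expressed and is a regulator of the mitotic spindle in dividing cells, while Stmn2, Stmn3 and Stmn4 are mainly neuronal. Gpm6a and Gpm6b are 4-pass membrane glycoproteins of the cell surface. Gpm6a promotes filopodia and neurite growth, and both are also found in glia.

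The libraries held between 82965565 and 86932708 counts, so depth differed little between genotypes. Levels are in CPM (counts scaled to a common library size, with edgeR's TMM factors), and means are given ± SD of n = 2 samples. The log2 fold change of Npas3-/- over WT is written log2FC. Npas3 itself had 5129 and 8739 counts in WT and 2055 and 1386 in Npas3-/-, so its transcript was lower in the mutant libraries but not absent. Fold changes over all genes followed the GC content of the transcripts (Spearman's rho 0.73, a description across 14393 genes, which are not independent). They also followed transcript length (rho -0.48). The gradient in GC content ran between libraries of 1 genotype too, with a rho of 0.55 for WT replicate 1 minus 2. The fold changes of the 10 genes and the counts of the lists are therefore also given from a fit that corrects for GC content and length, which also takes away any true difference that follows them. Npas3 itself stood at a log2FC of -1.82 (adjusted p = 0.0181, edgeR). With the correction it stood at -0.57 and did not pass (adjusted p = 0.154, edgeR). Shares and ratios between genes were not corrected.

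Of the 9 tested genes, Gpm6a, Map2 and Gpm6b fell and Stmn3 rose in Npas3-/- at an adjusted p below 0.05 (edgeR quasi-likelihood fit, Benjamini-Hochberg adjustment over 18838 tested genes). Among all tested genes 21.5% fell and 11.6% rose, 33.1% in all. The 9 genes had a median log2FC of -0.020 beside -0.070 over all tested genes, and values ran from -4.81 to 1.60. That median is the value of Mapt, and it was 0.47 without WT replicate 1 and 0.48 without Npas3-/- replicate 1. WT and Npas3-/- values were apart for 7 of the 9 (all but Mapt and Stmn2), 4 higher and 3 lower in Npas3-/-. Of all tested genes 75.8% did not overlap, 35.7% higher and 40.1% lower. With the GC and length correction Gpm6a and Map2 fell and none of the 9 rose, where 3.08% of all tested genes fell and 5.71% rose, 8.79% in all. The correction moved the median of all tested genes to 0.088. Without Npas3-/- replicate 2 none of the 9 was called in the uncorrected edgeR fit, in which 0 of all tested genes passed. In that fit 5728 of all tested genes and 3 of the 9 had an unadjusted p below 0.05. The cultures are bulk samples, in which fewer cells of a type and less RNA per cell cannot be told apart.

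**Figure D1:**
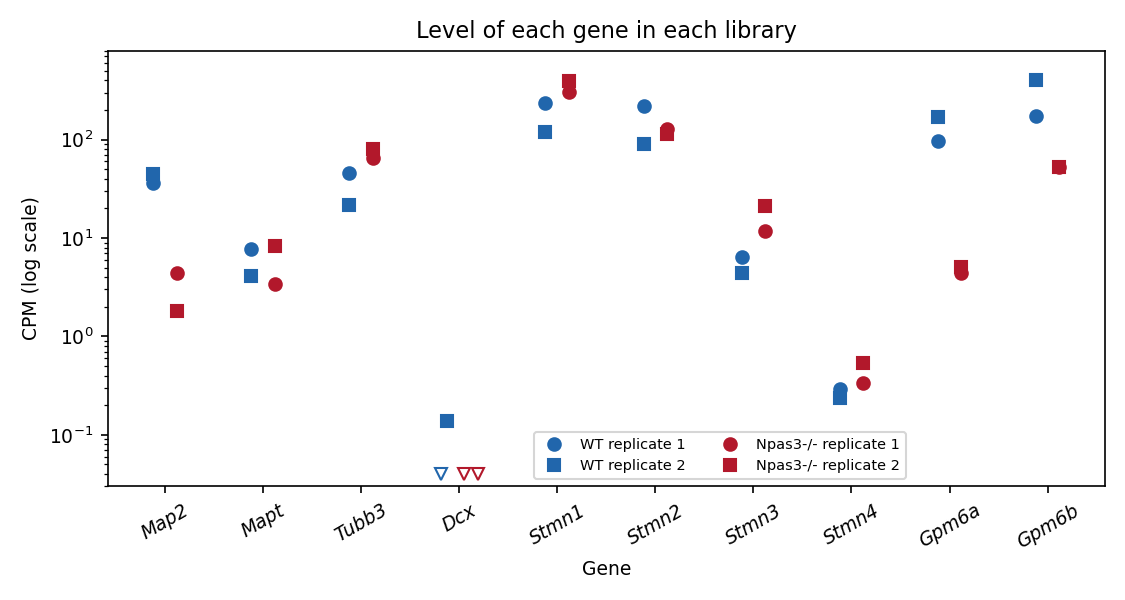
CPM on a log axis (vertical) for each of the 10 genes (horizontal) in the 4 libraries: blue WT, red Npas3-/-, circles replicate 1, squares replicate 2, and open triangles libraries with 0 counts. Gpm6a, Map2 and Gpm6b stand lower in both Npas3-/- libraries, Mapt and Stmn2 overlap, and Dcx has a count in WT replicate 2 alone.

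The promoters of the 3 genes that fell are shown because Npas3 is a DNA-binding factor: RefSeq windows of 250 bases before to 50 after the transcription start (GRCm38.p6), 5′ to 3′ on the gene's strand. Capitals mark ACGTG on either strand, the core of sites that several bHLH-PAS factors bind as dimers with Arnt. The Gpm6a window printed, 1 of those of this gene, is chr8:54954478-54954777 (plus strand). That of Gpm6b is chrX:166238693-166238992 (plus strand) and that of Map2 is chr1:66175079-66175378 (plus strand).
Gpm6a: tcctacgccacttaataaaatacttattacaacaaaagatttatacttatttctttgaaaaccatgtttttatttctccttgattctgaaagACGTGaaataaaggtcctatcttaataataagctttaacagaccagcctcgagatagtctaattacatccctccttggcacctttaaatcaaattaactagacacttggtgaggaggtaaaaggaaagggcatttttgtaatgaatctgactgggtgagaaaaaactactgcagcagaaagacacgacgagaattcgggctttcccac
Gpm6b: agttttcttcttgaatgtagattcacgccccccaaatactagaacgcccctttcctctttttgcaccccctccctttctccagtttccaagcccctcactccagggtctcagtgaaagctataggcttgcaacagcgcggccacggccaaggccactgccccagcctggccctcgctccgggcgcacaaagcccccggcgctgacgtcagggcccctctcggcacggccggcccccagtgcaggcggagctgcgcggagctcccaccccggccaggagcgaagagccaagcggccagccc
Map2: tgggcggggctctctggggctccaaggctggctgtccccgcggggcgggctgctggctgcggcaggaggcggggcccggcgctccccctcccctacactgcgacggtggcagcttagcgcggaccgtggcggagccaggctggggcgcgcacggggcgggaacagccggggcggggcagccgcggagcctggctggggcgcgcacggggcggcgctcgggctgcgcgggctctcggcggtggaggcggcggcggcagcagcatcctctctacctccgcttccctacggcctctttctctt
The core was found once, at -158 from the start of Gpm6a. It was in none of the other 7 windows, which belong to Map2, Tubb3, Dcx, Stmn3, Gpm6b and a second start of Gpm6a (6 of the 10 genes had a window). Over all 32851 RefSeq windows of this length 19.6% hold it. The 3 windows printed differ in composition, with a GC content of 36.0% for Gpm6a, 65.3% for Gpm6b and 77.7% for Map2, against a median of 52.7% over all windows. The Gpm6a window that is not printed has 47.0% GC. A match describes the sequence, and no binding was measured here.

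Among the microtubule-associated protein genes, Map2 (ENSMUSG00000015222.17, mm10 chromosome 1, 66175273 to 66442583, plus strand) fell 13.03-fold. It stood at 36.4 and 45.03 CPM in WT replicates 1 and 2 and at 4.43 and 1.82 CPM in Npas3-/- replicates 1 and 2, on 3236, 4215, 367 and 140 counts. Every Npas3-/- library was far below every WT library, although the 2 Npas3-/- libraries differed 2.44-fold from each other. The means were 40.7 ± 6.07 and 3.12 ± 1.85 CPM, a log2FC of -3.70 (SE 0.50; adjusted p = 0.0130, edgeR). With the GC and length correction Map2 fell 6.19-fold (log2FC -2.63, SE 0.35; adjusted p = 0.0246 by the same edgeR test). Without Npas3-/- replicate 2 the adjusted p was 0.0798 at a log2FC of -3.19 in edgeR, and with the correction it was 0.153 without that library and 0.104 without Npas3-/- replicate 1. An antisense gene, Gm10558, shares 124 exonic bases with Map2 and had 0 counts in the 4 libraries.

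Mapt (ENSMUSG00000018411.17, chromosome 11, 104231390 to 104332090, plus strand), the tau gene, did not separate the genotypes. It stood at 7.74 and 4.16 CPM in WT replicates 1 and 2 and at 3.38 and 8.35 CPM in Npas3-/- replicates 1 and 2. The lowest and the highest value were thus both Npas3-/- libraries, and the genotypes overlapped. The log2FC was -0.020 (SE 0.56; adjusted p = 0.982 in edgeR), and its sign turned with DESeq2's size factors (0.00092), with the GC and length correction (0.20), without WT replicate 1 (0.47) and without Npas3-/- replicate 1 (0.48). The per-length ratio of Map2 to Mapt was 2.16 and 4.96 in WT and 0.600 and 0.0997 in Npas3-/-, a log2 ratio lower by 3.74 on average. An exact permutation test over the 4 samples gave p = 0.333 (two-sided), the smallest p that 2 against 2 samples allow.

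Dcx (ENSMUSG00000031285.14, chromosome X, 143855842 to 143933311, minus strand), a marker of young migrating neurons, was near the limit of detection. It had 13 counts in WT replicate 2, or 0.139 CPM, and 0 in WT replicate 1 and in both Npas3-/- libraries. A count of 0 allows a level of up to 0.0338 CPM in WT replicate 1 and of up to 0.0362 and 0.0390 CPM in Npas3-/- replicates 1 and 2 (3 counts per library, covering counting error only). A difference between genotypes was not detectable at this depth.

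Tubb3 (ENSMUSG00000062380.4, chromosome 8, 123411424 to 123422015, plus strand), the beta-tubulin used as a neuronal marker, was present in every library. It stood at 45.9 and 21.9 CPM in WT replicates 1 and 2 and at 65.2 and 79.6 CPM in Npas3-/- replicates 1 and 2. Both Npas3-/- libraries were above both WT libraries, while the 2 WT libraries differed 2.099-fold. The means were 33.9 ± 17.0 and 72.4 ± 10.2 CPM, a log2FC of 1.09 (SE 0.38) that did not pass (adjusted p = 0.0767, edgeR). It passed in DESeq2's Wald test (adjusted p = 0.0226) and in edgeR without WT replicate 1 (log2FC 1.71, adjusted p = 0.0137), and was 0.64 without WT replicate 2 (adjusted p = 0.172, edgeR). With the GC and length correction it stood at 0.29 (adjusted p = 0.531 in edgeR). Of the 7 beta-tubulin genes measured, Tubb3 made up between 1.46% and 2.18% of the summed level per length in the 4 libraries.

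Of the 4 stathmin genes Stmn1 had the highest level per length and Stmn4 the lowest in every library. Stmn1 (ENSMUSG00000028832.11, chromosome 4, 134468320 to 134473843, plus strand) stood at 236 and 119.96 CPM in WT replicates 1 and 2 and at 305 and 394.5 CPM in Npas3-/- replicates 1 and 2. As for Tubb3, the Npas3-/- libraries were the 2 highest and WT replicate 2 the lowest. The means were 178 ± 82.4 and 350 ± 63.0 CPM, a log2FC of 0.97 (SE 0.37; adjusted p = 0.0902, edgeR) that did not pass. It passed in DESeq2 (adjusted p = 0.0349) and in edgeR without WT replicate 1 (1.52, adjusted p = 0.0172), and was 0.55 without WT replicate 2 (adjusted p = 0.229, edgeR). With the GC and length correction it was 0.58 (adjusted p = 0.256 in edgeR), and in that fit 1.16 without WT replicate 1, which passed (adjusted p = 0.0251), and 0.18 without WT replicate 2 (adjusted p = 0.596). Of the 50-base words of the Stmn1 transcript 36.5% also occur in Gm11223 or in the small gene Gm23634, and its counts are uncertain to the extent that such reads were split. Gm11223 had 323, 341, 389 and 597 counts in the order above, beside 20997, 11229, 25305 and 30377 for Stmn1.

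Stmn2 (ENSMUSG00000027500.10, chromosome 3, 8509360 to 8561606, plus strand), known from growing and regenerating axons, was abundant in these astrocyte cultures. It stood at 218 and 90.2 CPM in WT replicates 1 and 2 and at 127.8 and 115 CPM in Npas3-/- replicates 1 and 2. The WT libraries were the highest and the lowest, with a 2.42-fold difference between them, and the Npas3-/- libraries lay in between. The means were 154 ± 90.4 and 121 ± 8.99 CPM (log2FC -0.34, SE 0.42; adjusted p = 0.554, edgeR). The sign was positive with the GC and length correction (0.48, adjusted p = 0.488 in edgeR). It was also positive without WT replicate 1, at 0.41 (adjusted p = 0.288, edgeR), and in the corrected fit it was 1.35 without WT replicate 1, which passed (adjusted p = 0.0224, edgeR), and -0.053 without WT replicate 2 (adjusted p = 0.899).

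Stmn3 (ENSMUSG00000027581.12, chromosome 2, 181306459 to 181314500, minus strand) was the single gene of the 9 to rise. It stood at 6.49 and 4.45 CPM in WT replicates 1 and 2 and at 11.8 and 21.3 CPM in Npas3-/- replicates 1 and 2, with no overlap. The means were 5.47 ± 1.44 and 16.6 ± 6.73 CPM, a 3.03-fold rise (log2FC 1.60, SE 0.41; adjusted p = 0.0378, edgeR). With a replicate block Stmn3 was not called (1.56, adjusted p = 0.0865 in edgeR). The call ended with the correction (0.64, adjusted p = 0.174 in edgeR), with no filter on low counts (adjusted p = 0.0597), without WT replicate 2 (1.34, adjusted p = 0.105) and without Npas3-/- replicate 2 (1.12, adjusted p = 0.187). Stmn4 (ENSMUSG00000022044.14, chromosome 14, 66344296 to 66361680, plus strand) was scarce, with 26 and 22 counts in WT (0.293 and 0.235 CPM) and 28 and 41 counts in Npas3-/- (0.338 and 0.532 CPM). Its log2FC was 0.72 (SE 0.79; adjusted p = 0.505, edgeR) and 0.019 with the correction (adjusted p = 0.99, edgeR).

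Within the stathmin family Stmn1 took a larger share in both Npas3-/- libraries. Per length, Stmn1 made up 73.3% and 75.6% of the summed stathmin level in the WT libraries and 82.6% and 83.8% in the Npas3-/- libraries. The share of Stmn2 was 23.2% and 19.5% in WT and 11.9% and 8.39% in Npas3-/-, and that of Stmn3 was 3.40% and 4.75% against 5.41% and 7.67%. These shares do not depend on the scaling of libraries, and those of Stmn1, Stmn2 and Stmn3 did not overlap between genotypes. Shares within a family depend on each other, so these separations are not independent. In CPM 75.8% of all tested genes did not overlap. The log2 ratio of Stmn1 to the other 3 stathmins was 1.54 ± 0.12 in WT and 2.31 ± 0.087 in Npas3-/-, a difference of 0.77 (exact permutation test, two-sided p = 0.333, the smallest the design allows). The transcripts of Stmn1, Stmn2 and Stmn3 have a GC content of 51.1%, 46.1% and 57.3%, and the part of the GC gradient in this difference was not tested.

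**Figure D2:**
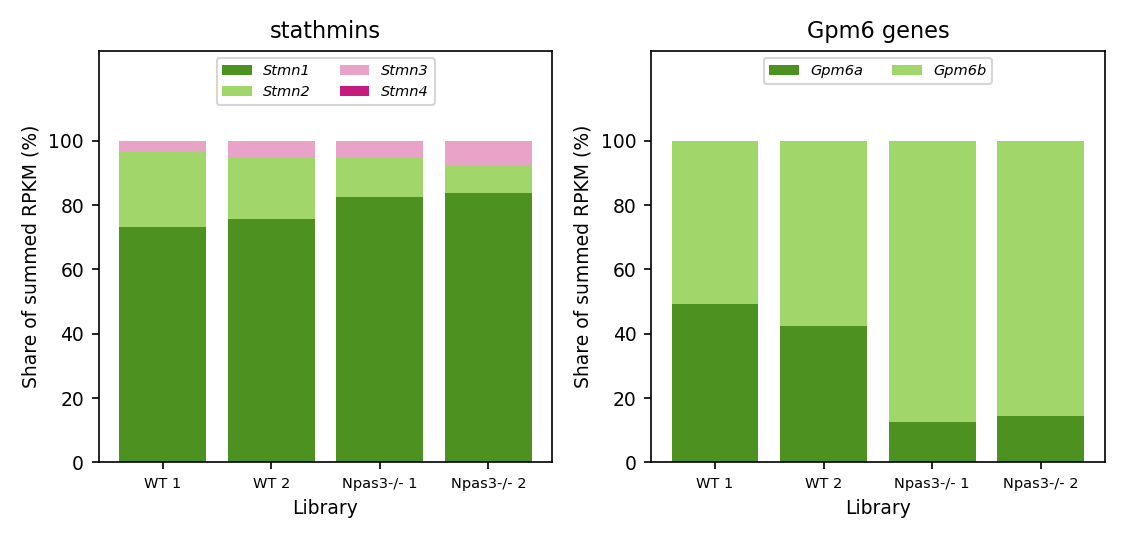
Share in percent of the summed RPKM (vertical) of each stathmin gene (left) and of Gpm6a and Gpm6b (right) in each of the 4 libraries (horizontal); stacked bars add up to 100%. Stmn1 takes a larger share in both Npas3-/- libraries, and the share of Gpm6a is 49.1% and 42.4% in WT and 12.5% and 14.3% in Npas3-/-.

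Both Gpm6 genes fell, by unequal folds. Gpm6a (ENSMUSG00000031517.8, chromosome 8, 54954843 to 55060871, plus strand) stood at 96.5 and 169 CPM in WT replicates 1 and 2 and at 4.37 and 5.08 CPM in Npas3-/- replicates 1 and 2, on 8565, 15806, 362 and 391 counts. Both WT libraries were high and both Npas3-/- libraries low, with no overlap. It fell 28.1-fold (log2FC -4.81, SE 0.36; adjusted p = 0.0130, edgeR). With the GC and length correction the fall was 5.94-fold (log2FC -2.57, SE 0.23; adjusted p = 0.0246, edgeR). Without Npas3-/- replicate 2 the log2FC was -4.92 with an adjusted p of 0.0798 (edgeR). In the corrected edgeR fit it was -2.41 (adjusted p = 0.104) without Npas3-/- replicate 1 and -2.84 (adjusted p = 0.153) without Npas3-/- replicate 2.

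Gpm6b (ENSMUSG00000031342.17, chromosome X, 166238911 to 166388988, plus strand) stood at 174 and 399.7 CPM in WT replicates 1 and 2 and at 53.2 and 53.0 CPM in Npas3-/- replicates 1 and 2. Both mutant libraries were lower, and the 2 WT libraries differed 2.29-fold. It fell from 287 ± 159 to 53.1 ± 0.130 CPM, or 5.41-fold (log2FC -2.43, SE 0.42; adjusted p = 0.0172, edgeR). The adjusted p was 0.0547 without Npas3-/- replicate 1 and 0.0873 without Npas3-/- replicate 2 (edgeR). With the GC and length correction the sign turned, and Gpm6b stood at 0.072 (SE 0.19; adjusted p = 0.829, edgeR).

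The 2 Gpm6 transcripts are close in composition, at 39.0% and 40.0% GC, and have lengths of 3215 and 4764 bases. The per-length ratio of Gpm6a to Gpm6b was 0.965 and 0.736 in the WT libraries and 0.143 and 0.167 in the Npas3-/- libraries. The log2 ratio thus went from -0.25 ± 0.28 to -2.69 ± 0.16, lower by 2.45 in Npas3-/- (exact permutation test, two-sided p = 0.333, the smallest that 2 against 2 samples allow).

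**Figure D3:**
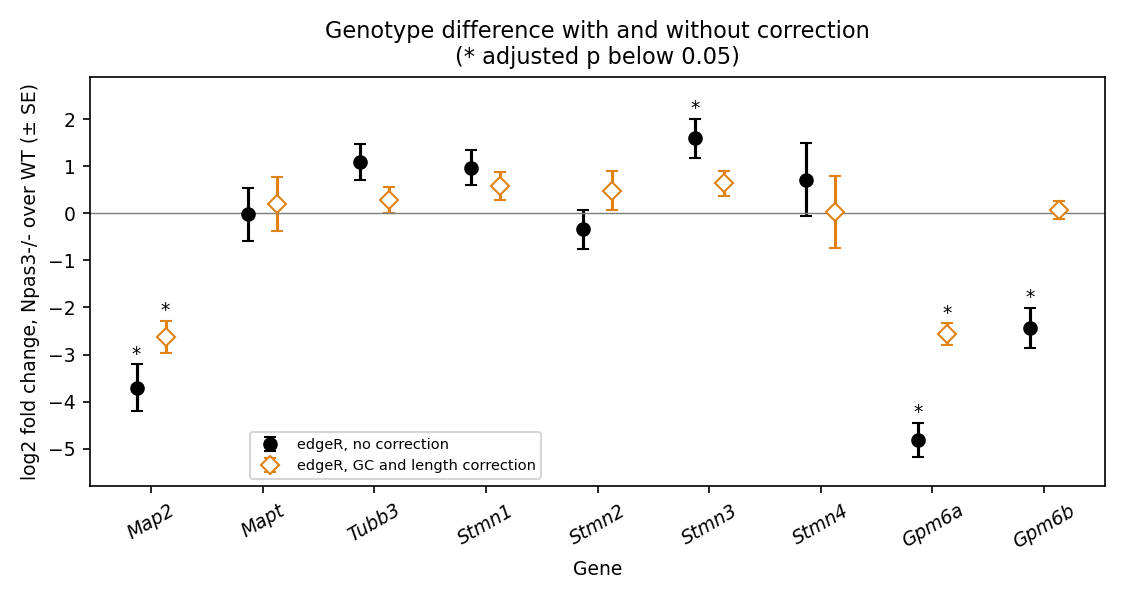
Log2 fold change of Npas3-/- over WT (vertical, ± SE) of the 9 tested genes (horizontal), without correction (black circles) and with the GC and length correction (open diamonds); asterisks mark an adjusted p below 0.05 in edgeR. Map2 and Gpm6a are lower in both fits, whereas Gpm6b moves from -2.43 to 0.072.

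Set against genes of similar composition, some of the 9 genes lay inside and some outside the common range. Genes of at least 1 CPM with 38% to 40% GC had a median log2FC of -2.55 and an interquartile range from -3.06 to -1.90, which held Gpm6b at -2.43 and not Gpm6a at -4.81. Genes with 46% to 48% GC had a median of -0.82 and an interquartile range from -1.59 to -0.033, which held Stmn2 but not Map2 at -3.70. Genes with 50% to 52% GC had an interquartile range from -0.43 to 0.69, below Stmn1 at 0.97. Genes with 56% to 58% GC had an interquartile range from 0.35 to 1.06, below Stmn3 at 1.60 and also below Tubb3 at 1.09. Mapt, at 52.5% GC, lay at -0.020, just under the interquartile range of genes with 52% to 54% GC, which began at -0.018, and Stmn4, itself under 1 CPM, lay inside that of genes with 54% to 56% GC (0.23 to 1.00). Between the 2 WT libraries, replicate 1 was higher than replicate 2 for Tubb3, Stmn1, Stmn2, Stmn3, Stmn4 and Mapt and lower for Map2, Gpm6a and Gpm6b. Stmn2, at 46.1% GC and 2073 bases, had the largest excess in WT replicate 1 of the 9 genes (2.42-fold). Map2, at 47.8% GC and 6258 bases, was higher in WT replicate 2. The parts of GC content and length in these differences were not tested.

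**Figure D4:**
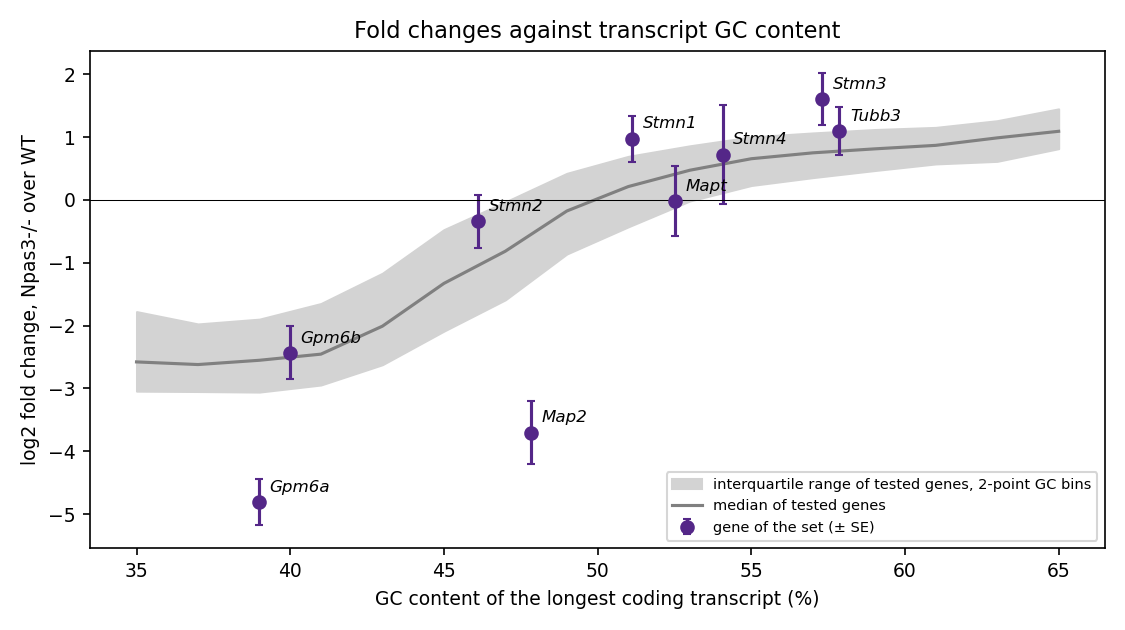
Log2 fold change of Npas3-/- over WT (vertical) against the GC content of the longest coding transcript in percent (horizontal) for the 9 tested genes (purple points, ± SE); the grey line and band give the median and the interquartile range of all tested genes of at least 1 CPM. Gpm6a and Map2 lie well below the band, and Gpm6b lies inside it.

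Compared per length, the order of levels differed between genotypes. RPKM (CPM per kilobase of all annotated exons of the gene) in WT was 92.7 ± 42.9 for Stmn1, 51.2 ± 28.5 for Gpm6b, 41.3 ± 15.9 for Gpm6a, 27.5 ± 16.1 for Stmn2 and 18.2 ± 9.10 for Tubb3. In that sequence each gene overlapped the next over the 2 libraries. Below them, and apart from their neighbours, came Stmn3 (4.82 ± 1.26), Map2 (2.48 ± 0.37), Mapt (0.790 ± 0.336) and Stmn4 (0.138 ± 0.0213), with Dcx last. In Npas3-/- Stmn1 again led with an RPKM of 182 ± 32.8, followed by Tubb3 (38.8 ± 5.46), Stmn2 (21.7 ± 1.60), Stmn3 (14.6 ± 5.93) and Gpm6b (9.48 ± 0.0233). Gpm6a (1.47 ± 0.156) and Mapt (0.779 ± 0.467) followed, and Stmn4 (0.227 ± 0.0718) and Map2 (0.190 ± 0.112) overlapped. Lengths of the longest coding transcript change part of this order in WT, with Stmn2 at 74.3 above Gpm6b at 60.2 and Map2 at 6.51 above Stmn3 at 4.82. In Npas3-/- they put Stmn2 at 58.6 above Tubb3 at 38.8 and Map2 at 0.499 above Stmn4 at 0.320.

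Over the 4 libraries, the profiles most like that of Gpm6a among 10926 genes of at least 5 CPM were those of Ap3m1, an adaptor complex gene (Euclidean distance of centred log2 CPM 0.20), the radial glia gene Fabp7 (0.25) and Fam171b (1.01). Among the members, Tubb3 and Stmn1 were the closest pair (0.12), and Map2 was nearer to Gpm6b (1.17) than to Gpm6a (1.38). These distances rest on 4 libraries and describe them only.

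The rest of the microtubule system was read from gene lists. Of 15 genes for tubulins and the gamma-tubulin complex proteins Tubgcp2 and Tubgcp3, termed tubulins below, 2 rose and 0 fell. They encode building blocks and nucleators of microtubules, and their median log2FC was 0.84. The count of 2 is near the 11.6% of all tested genes that rose. Tuba1c rose from 340 ± 76.5 to 686 ± 59.4 CPM and Tubb4a from 47.7 ± 4.08 to 76.3 ± 0.452 CPM (adjusted p = 0.0328 and 0.0459, edgeR), while Tuba1a stood at 0.97 (adjusted p = 0.0517, edgeR). All 15 had genotypes that did not overlap, beside 75.8% of all tested genes. With the correction 0 of the 15 were called, beside 8.79% of all tested genes, and the median was 0.24. The count of 2 was 9 with DESeq2 and 9 without WT replicate 1, and 0 without each of the other 3 libraries.

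Of 30 other genes for microtubule-binding, plus-end and severing proteins 1 rose and 13 fell, with a median log2FC of -0.85, where 11.6% of all tested genes rose and 21.5% fell. The severing enzyme gene Spast fell from 40.4 ± 5.90 to 12.5 ± 0.0961 CPM, the plus-end gene Clasp2 from 66.01 ± 9.89 to 17.1 ± 5.70 CPM and the minus-end gene Camsap2 from 63.2 ± 34.5 to 7.03 ± 2.79 CPM (adjusted p between 0.0135 and 0.0160, edgeR). With the correction 4 fell and 1 rose, where 3.08% of all tested genes fell and 5.71% rose, and the median was 0.043. Camsap2 stood at -1.52 there and passed, and Spast (0.20) and Clasp2 (-0.14) did not. The gene that rose, Tppp3, and those called in the corrected fit besides Camsap2 (lower Macf1, Dst and Clip1, higher Mapre1) were chosen after their values were seen. Mapre1, which encodes a plus-end tracking protein, fell without the correction (-0.96) and rose with it (1.28). The count of 13 was 6 without Npas3-/- replicate 1 and 0 without Npas3-/- replicate 2, and the count of 1 was 3 without WT replicate 1, 3 with DESeq2 and 0 without WT replicate 2 or Npas3-/- replicate 2.

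Of 28 enzymes and chaperones that modify or fold tubulin or phosphorylate tau 3 rose and 6 fell, with a median log2FC of 0.12. These counts are near the 11.6% and 21.5% of all tested genes that rose and fell. The tubulin glutamylase gene Ttll4 fell from 29.7 ± 1.74 to 5.44 ± 1.13 CPM, the kinase gene Mapk8 from 21.1 ± 5.51 to 2.41 ± 0.565 CPM and the tau kinase gene Gsk3b from 154 ± 35.8 to 33.4 ± 7.22 CPM (each at an adjusted p of 0.0130, edgeR). With the correction 0 of the 28 were called, beside 8.79% of all tested genes, and Ttll4, Mapk8 and Gsk3b stood at -0.95, -0.65 and -0.51. The count of 3 that rose was 0 without WT replicate 2, and both counts were 0 without Npas3-/- replicate 2.

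**Figure D5:**
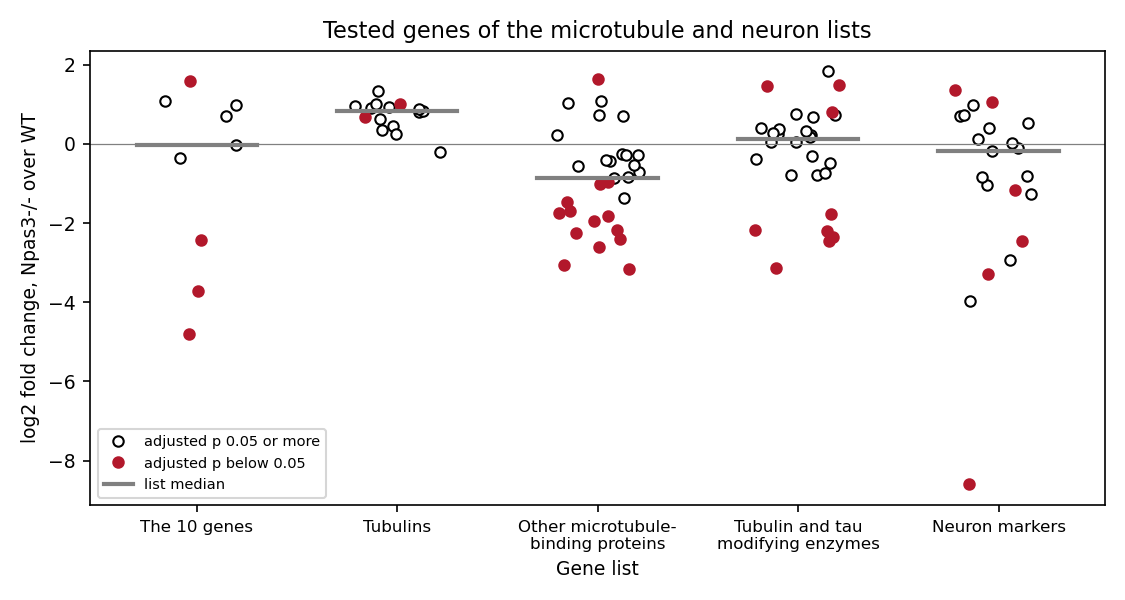
Log2 fold change of Npas3-/- over WT (vertical) of each tested gene in 5 lists (horizontal); filled points have an adjusted p below 0.05 in edgeR, and the grey bar is the list's median. Tubulins, listed with Tubgcp2 and Tubgcp3, lie mostly above 0 (median 0.84), other microtubule-binding proteins mostly below it (median -0.85).

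Markers of neurons, for which most of these genes are known, went both ways. Of 25 neuronal markers 21 were tested, 2 rose and 4 fell, with a median log2FC of -0.18, and 1 rose and 2 fell with the correction. Over all tested genes 11.6% rose and 21.5% fell, and 5.71% and 3.08% with the correction. The uncorrected counts are thus near the shares over all tested genes. Gad2, a GABA synthesis gene, fell from 3.98 ± 0.309 to 0.409 ± 0.0831 CPM and the synaptic vesicle gene Syt1 from 4.30 ± 1.26 to 0.788 ± 0.251 CPM. The endosomal gene Nsg1 rose from 68.3 ± 21.7 to 175 ± 4.62 CPM and the surface glycoprotein gene Thy1 from 531 ± 125 to 1107 ± 39.6 CPM. With the correction Nsg1 passed (1.03), and Thy1 (0.32), Gad2 (-1.33) and Syt1 (-1.07) did not. The 2 that fell with the correction were Elavl3 and Nefh, chosen after their values were seen, and both also fell without it. Elavl3 stood at -1.16 without the correction and -1.17 with it. Nefh had 33 and 71 counts in WT replicates 1 and 2 and 0 in both Npas3-/- libraries. The adhesion gene Ncam1 stood at 312 ± 1.73 and 290.2 ± 65.3 CPM. The summed level of the list was 1142 and 932 CPM in WT and 1692 and 1666 CPM in Npas3-/-. Without its 3 most abundant genes (Thy1, Ncam1 and Nsg1) it was 126 and 125 CPM in WT and 104 and 108 CPM in Npas3-/-. The 2 that rose were 1 without WT replicate 2 and 0 without either Npas3-/- library. The 4 that fell were 2 without WT replicate 2, 0 without Npas3-/- replicate 2 and 9 with DESeq2.

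Several defining neuronal markers were at or near 0 in all libraries. Slc17a6 and Slc32a1, vesicular transporters of excitatory and inhibitory neurons, had 0 counts in all 4. Snap25 had 5 and 35 counts and Rbfox3 had 4 and 25 in WT replicates 1 and 2, with 0 in both Npas3-/- libraries. Slc17a7 and Syp were instead higher in both Npas3-/- libraries, and neither passed in edgeR. Slc17a7 stood at 1.16 and 2.30 CPM in WT and 2.68 and 3.04 CPM in Npas3-/-. Syp stood at 8.58 and 9.24 CPM in WT and 13.8 and 21.3 CPM in Npas3-/-. The markers at 0 in both Npas3-/- libraries numbered 5, and those at 0 in both WT libraries 2, with Slc17a6 and Slc32a1 in both counts. Over all genes, too, fewer had a count in Npas3-/- replicates 1 and 2 (20652 and 21337) than in WT replicates 1 and 2 (22902 and 23761). WT replicate 2, the one library with Dcx counts, had more counts of Snap25 and Rbfox3 than WT replicate 1. Some other neuronal markers went the other way, with 461 and 319 counts of Syt1, 168 and 74 of Nefm, 93 and 28 of Ina and 3773 and 2754 of Gap43 in WT replicates 1 and 2, and Stmn2 was also highest in WT replicate 1. Further markers again had more counts in WT replicate 2 than in WT replicate 1, such as Gad1 (260 and 111), Slc17a7 (215 and 103) and Nsg2 (2878 and 1922). The genes of this paragraph were chosen after their values were seen, and the part of neurons in the results for Map2, Stmn2 and Gpm6a was not tested. The level of Stmn2, 90.2 to 218 CPM, stood beside at most 0.374 CPM of Snap25 in any library. Other markers of the list were present in every library, such as Nsg2 (21.6 to 31.7 CPM), Syn1 (14.5 to 25.6 CPM) and Syp (8.58 to 21.3 CPM).

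Of 10 tested neuronal progenitor markers 1 rose and 5 fell, with a median log2FC of -1.17 and a summed level of 505 and 527 CPM in WT and 327 and 377 CPM in Npas3-/-. Their most abundant gene, Sox4, fell from 286 ± 64.5 to 104 ± 9.85 CPM (-1.46). In the corrected fit 3 of the 10 fell and 0 rose. For the lists of this paragraph, 11.6% of all tested genes rose and 21.5% fell, and 5.71% and 3.08% with the correction. Of 12 markers of cycling cells, given for the mitotic role of Stmn1, 0 rose and 4 fell with a median of -0.35, and with the correction 3 rose and 1 fell. Top2a fell from 217 ± 56.4 to 30.1 ± 5.10 CPM. Oligodendrocyte-lineage markers were present, with a summed level of 1499 to 2199 CPM, and of 9 tested 1 rose and 0 fell with a median of 0.22 (0 and 0 with the correction). Their most abundant gene Olig1, a transcription factor gene of the lineage, stood at 1046 ± 45.5 and 1280 ± 229.6 CPM (adjusted p = 0.365, edgeR). The mature myelin gene Mog, chosen after its values were seen, had 0 counts in all 4 libraries. Of the 11 genes of this list Mog alone was at 0 in all 4, so its absence does not extend to the other genes. The part of these cell types in the results was not tested.

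The counts of this paragraph stand beside 11.6% of all tested genes that rose and 21.5% that fell (5.71% and 3.08% with the correction). Astrocyte markers summed to 3631 to 5892 CPM and went both ways. Of 11 tested among 12, 2 rose and 3 fell (2 and 2 with the correction), and their most abundant gene Gfap, an intermediate filament gene, rose from 634 ± 29.97 to 1885 ± 20.5 CPM. The 3 that fell were the water channel gene Aqp4, from 311 ± 242 to 19.3 ± 3.97 CPM, the gap junction gene Gja1, from 200.2 ± 39.3 to 33.4 ± 6.28 CPM, and the glutamate transporter gene Slc1a2, from 183 ± 108 to 32.7 ± 1.71 CPM, and Aldoc rose from 317 ± 80.6 to 1482 ± 52.3 CPM. S100b was at or under 0.555 CPM on average in either genotype and Gjb6 at or under 0.0976 CPM, and these 5 and Aldoc were chosen after their values were seen. Of 9 radial glia markers 0 rose and 3 fell (0 and 1 with the correction), with Vim at a log2FC of 0.57 that did not pass (adjusted p = 0.131, edgeR). Microglial markers summed to 2.28 to 7.34 CPM and endothelial markers to 12.03 to 17.2 CPM. In those 2 lists 0 rose, and 0 of 9 and 1 of 4 fell, with Tmem119 (0.61) and Flt1 (-0.061) the most abundant and neither passing. Fibroblast and meningeal markers (0 rose and 2 fell of 7) summed to 293 to 398 CPM, with Col1a2 (log2FC 0.011) the most abundant. Ependymal markers (0 called of 5) summed to 264 to 644 CPM, with Foxj1 at 0.89 (adjusted p = 0.0522, edgeR). Most of that sum was Foxj1 alone. Its level was 344 and 241 CPM in WT replicates 1 and 2 and 479 and 604 CPM in Npas3-/- replicates 1 and 2.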

How the data were processed

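The authors deposited raw counts per gene for 4 samples, with Ensembl identifiers and 1 column per sample, matched by name to the sample titles. The tools named in the submitters' processing notes are featureCounts, HISAT2 2.1.0 and Trimmomatic 0.3.8, with build mm10. Not given in the sources used here are the counting's strand setting, its treatment of shared reads and the release of its annotation, so counts of overlapping genes are uncertain. Symbols, positions and lengths came from GENCODE M21 of the same build (53274 of 53379 identifiers matched).

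Genotypes were compared with edgeR 4.0.16 (R 4.3.3): TMM, filterByExpr with a minimum count of 10, quasi-likelihood test with 2 residual degrees of freedom, Benjamini-Hochberg adjustment over all tested genes and a threshold of 0.05. Each SE was taken as the absolute log2 fold change divided by the root of the F statistic. The procedure was tested on simulated data. A simulated GC trend lay in the Npas3-/- libraries alone, so gradients between libraries of the same genotype were not covered. The correction entered as offset, per library, a natural spline (6 degrees of freedom each) in GC content and log2 length of the longest coding transcript. RPKM used the union of exons. Log2 CPM for distances had a pseudocount of 2.

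The 10 genes, the gene lists and the alternatives were chosen with earlier results of these data known. Named besides the 10 were, in each microtubule list, the 3 tested genes with the smallest p, among neuronal markers these and the 3 most abundant, in other marker lists the most abundant, and the 3 profiles nearest to Gpm6a; others are marked as chosen after their values were seen. Alternatives were DESeq2 size factors, DESeq2 1.42.0, no filter, a filter of 5 CPM, a replicate block, leaving out each sample, the correction and other lengths. The fit of the correction on genes of at least 1 CPM, the correction without each sample and a crossed block were added after the data were seen. Of the listed genes 1 listed gene is not reported here.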

Additional observations from a re-analysis of the deposited data

How the results depend on the processing

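Map2, Gpm6a, Stmn1 and Stmn3 kept their direction under every setting that gave a fold change for single genes (the crossed block gave counts of calls), and Map2 and Gpm6a lost their call in none but those given with their results. With 2 samples a genotype, leaving 1 out rests on the spread of the other genotype, to which the lone sample is assumed to conform. Depth limited Dcx and Stmn4.

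With DESeq2's size factors in edgeR, 4 tubulin genes and 5 tubulin- and tau-modifying enzymes were called higher, and Mapt stood at 0.00092. With no filter on low counts, 1018 of all tested genes were called higher, and 0 of the 10 genes, 0 tubulins, 0 other microtubule-binding proteins, 1 enzyme and 1 neuronal marker. With a filter of 5 CPM, 6 tubulins and 5 enzymes were called higher and 2 neuronal markers lower. DESeq2's own test called 3 of the 10 genes, 9 tubulins, 3 other microtubule-binding proteins and 6 enzymes higher, and 9 neuronal markers lower.

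The labels do not say whether equal replicate numbers pair the samples. Across genes, deviations of same-numbered samples from their group means correlated at -0.33. That value cannot settle pairing, because the differences within both genotypes followed GC content. The rho was 0.55 for WT replicate 1 minus 2 and 0.36 for Npas3-/- replicate 2 minus 1. With a replicate block Stmn3 was not called (1.56, edgeR adjusted p = 0.0865), and 314 of all tested genes were called higher and 2246 lower. Of the 10 genes, the tubulins, the other microtubule-binding proteins and the enzymes 0 each were called higher, and 1 neuronal marker higher and 2 lower. A crossed replicate block, tried after the data were seen, called 3336 genes higher and 4334 lower, 3 of the 10 genes among the former and 3 among the latter.

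The GC and length correction called 1076 genes higher and 580 lower, and 859 higher and 717 lower when fitted on genes of at least 1 CPM. It called 0 of the 10 genes higher in either form, 0 tubulins higher, 4 other microtubule-binding proteins lower, 0 enzymes higher and 0 lower, and 1 neuronal marker higher and 2 lower. With the replicate block as well, 772 genes were called higher and 367 lower, 0 of the 10 genes, 0 tubulins, 0 enzymes and 1 neuronal marker higher, and 2 other microtubule-binding proteins, 0 enzymes and 0 neuronal markers lower. Under these 3 fits the signs of Mapt, Stmn2 and Gpm6b turned. Mapt stood at 0.20 with the correction, 0.14 when fitted on genes of at least 1 CPM and 0.093 with the block, Stmn2 at 0.48, 0.32 and 0.63, and Gpm6b at 0.072, 0.022 and 0.060, none of them called. Stmn4 turned to -0.16 in the fit on genes of at least 1 CPM.

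Leaving out each sample in turn gave 0 to 2005 genes called higher and 0 to 3827 lower, and 0 to 3 of the 10 genes higher and 0 to 3 lower. It gave 0 to 9 tubulins higher, 0 to 3 other microtubule-binding proteins higher and 0 to 13 lower, 0 to 4 enzymes higher and 0 to 6 lower, and 0 to 2 neuronal markers higher and 0 to 5 lower. The median over the tested genes of the set ranged from -0.42 to 0.48, since Mapt, its middle gene, stood at 0.47 without WT replicate 1 and at 0.48 without Npas3-/- replicate 1; Stmn2 stood at 0.41 without WT replicate 1. The lowest values were -0.81 for Mapt, without Npas3-/- replicate 2, and -0.86 for Stmn2, without WT replicate 2. The log2 ratios of Gpm6a to Gpm6b, of Stmn1 to the other stathmins and of Map2 to Mapt kept their signs, at -2.64 to -2.25, 0.68 to 0.85 and -5.04 to -2.45. With lengths of the longest transcript the Stmn1 ratio differed by 1.03 between genotypes.

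With the correction and each sample left out in turn, 0 to 2 of the 10 genes were called higher and 0 to 2 lower. Without WT replicates 1 and 2 and Npas3-/- replicates 1 and 2, in that order, Gpm6b stood at 0.049, 0.11, 0.22 and -0.15, Mapt at 0.76, -0.15, 0.81 and -0.70 and Stmn2 at 1.35, -0.053, 0.45 and 0.57, so the sign of none of the 3 held over these fits. Without WT replicate 2, Tubb3 was at -0.038 and Stmn4 at -0.026, and without Npas3-/- replicate 2 Stmn4 was at -0.14. The cause of these changes was not tested.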
